A study of Homo sapiens with 4 samples.

Results

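The 8 genes described here are known from mast cells and basophils and were measured in MEG-01, a human leukaemia line of megakaryoblasts: TPSAB1, TPSB2, TPSG1, CPA3, HPGD, IL1RL1, FCER1A and MS4A3. They are 8 of the 426 genes in the authors' deposited table, which lists genes with an adjusted p of at most 0.0497 between the groups. The 8 were selected from that table by name, with their fold changes known, so their differences between the groups are given as a description and no test is built on them. The groups were 2 WT libraries and 2 libraries of genotype OGT depletion, in which a lentiviral vector carried both SpCas9 and a guide RNA against OGT, the enzyme that attaches O-GlcNAc to nuclear and cytosolic proteins. All 4 libraries came from cells in RPMI1640 medium with 10% serum. The labels give no vector for WT cells, and the sources used here do not state whether the depleted cells were a clone or a mixed population. Nor do the labels say that replicates were separate cultures, so spreads between them may be technical.

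Mast cells and basophils are tissue and blood cells of allergic inflammation that carry IgE on the receptor whose binding subunit is FCER1A, and that release stored granule contents when the receptor is crosslinked. Mast cell granules hold tryptases and the carboxypeptidase CPA3, packed with heparin and histamine. Basophils, mast cells, megakaryocytes and erythroid cells share progenitors and GATA transcription factors, and genes of these neighbouring lineages can be transcribed side by side in leukaemia lines.

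Between 17643474 and 19883586 reads were counted per library, of which the 8 genes together took 7075 to 10238. OGT, the targeted gene, stood at 16012 and 19190 normalized counts in WT and 9124 and 12185 in the depleted libraries. A normalized count is a read count divided by the size factor of its library. Of 22 megakaryocyte and platelet markers, TUBB1 and F2R were in the table, and the other 20 were not analysed here, so the labelled cell type could not be checked on ITGA2B, PF4 or other defining markers.

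Higher in both depleted libraries than in either WT library were 6 of the 8 genes, the tryptase genes TPSAB1, TPSB2 and TPSG1 together with CPA3, HPGD and IL1RL1. FCER1A and MS4A3 were lower in both. Of 13154 genes the authors tested, 1.89% were called higher and 1.35% lower. The members come from the 426 listed genes, of which 248 were higher and 178 lower. The groups overlapped for none of the 8 genes, and likewise for 100% of the listed genes. Among the members the median log2 fold change was 1.23, beside 0.56 over all 426 listed genes. For the higher genes alone it was 1.48 in the members and 0.90 in the list. For the lower genes it was -0.78 and -0.63. An absolute log2 fold change above 1 was found in 5 of the 8, all of them higher, beside 28.4% of listed genes in either direction. Among the listed higher genes alone the share was 44.0%, and among the lower ones 6.74%. Every listed gene with a WT mean under 100 normalized counts exceeded 1, since only called genes are listed. TPSG1, TPSB2 and CPA3 lie there, so their place in this count follows from the selection of called genes. The medians of all members and of the higher members include these genes and carry the same limit. In these bulk libraries more cells of a kind and more RNA per cell cannot be told apart.

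**Figure D1:**
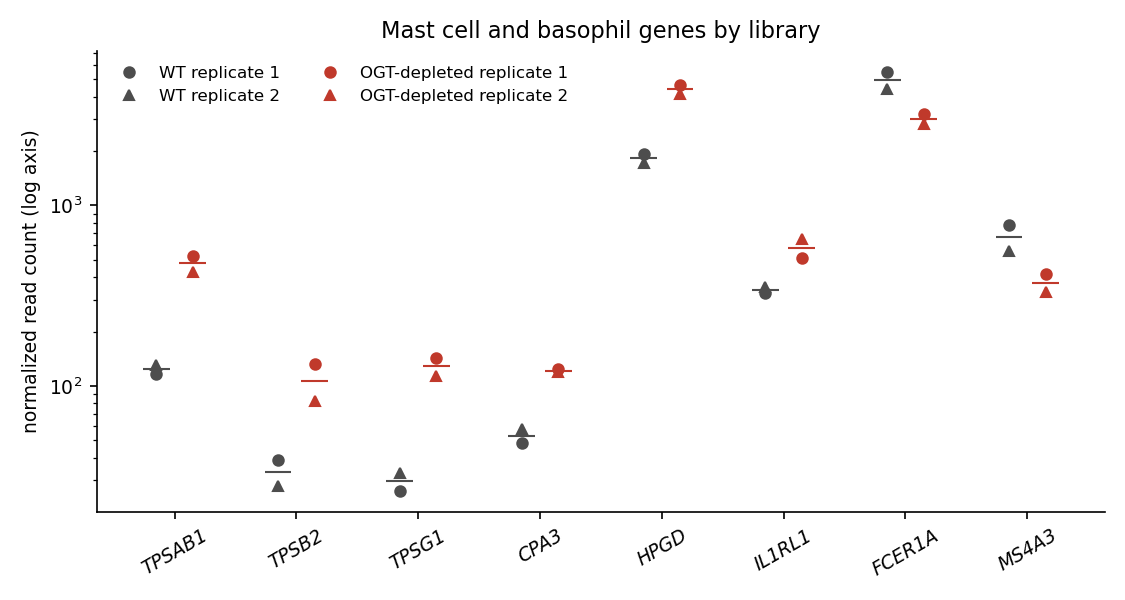
Normalized read counts (log axis) of the 8 genes in each library; circles are replicate 1, triangles replicate 2, grey WT, red OGT-depleted, and lines group means. The red points lie above the grey ones for TPSAB1, TPSB2, TPSG1, CPA3, HPGD and IL1RL1 and below them for FCER1A and MS4A3.

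TPSAB1 and TPSB2 encode the alpha and beta tryptases, trypsin-like serine proteases that make up much of the protein of mast cell granules, and TPSG1 encodes gamma tryptase, which is anchored in the membrane. In the deposited hg19 annotation TPSG1 (ENSG00000116176) lies on chromosome 16 from 1271651 to 1275257 on the minus strand, TPSB2 (ENSG00000197253) from 1277272 to 1280214 on the minus strand, and TPSAB1 (ENSG00000172236) from 1290697 to 1292555 on the plus strand. TPSB2 is annotated there as a polymorphic pseudogene. In GENCODE 29 transcripts the coding sequences of TPSAB1 and TPSB2, 828 bases each, differed at 4 positions and shared a run of 670 identical bases. Of all 100-base windows of the TPSAB1 coding sequence, 78.3% occurred without a mismatch in TPSB2, so the split of reads between the pair is uncertain. None of the 729 windows occurred in the coding sequence of TPSG1, which was 55.2% identical to that of TPSAB1 over the alignment. The 60-base stretch below holds 2 of the 4 differences between the pair, at coding bases 154 to 213 of TPSAB1 and TPSB2 and 166 to 225 of TPSG1. Capitals mark bases that differ from TPSAB1, 2 in TPSB2 and 19 in TPSG1.
TPSAB1: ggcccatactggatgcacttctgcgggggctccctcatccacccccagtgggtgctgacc
TPSB2: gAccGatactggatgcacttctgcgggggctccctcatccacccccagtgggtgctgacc
TPSG1: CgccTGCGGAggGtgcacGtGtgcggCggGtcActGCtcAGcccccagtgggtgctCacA

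TPSAB1 had 117 and 129.8 normalized counts in WT and 525 and 428 in the depleted libraries. The lower of the depleted libraries was thus 3.30-fold above the higher WT library, and the group means differed 3.86-fold (log2 fold change 1.95 ± 0.17 in an edgeR refit of the listed genes, SE, n = 2 per group). Among the 183 other listed higher genes at least as abundant in WT, 0 had a larger fold change. TPSB2 had 39.0 and 27.8 normalized counts in WT and 132 and 82.4 after depletion, a 3.21-fold difference in means (1.68 ± 0.28). Its replicates were the most uneven of the 8 genes in the depleted group, at 1.60-fold apart. The raw reads behind TPSB2 numbered 27 to 139 per library.

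Because reads of TPSAB1 and TPSB2 cannot be assigned with certainty, their counts were also summed. The sum was 156 and 158 normalized counts in WT, and 656 and 511 after depletion. That was 157 ± 1.23 against 584 ± 103 (SD, n = 2), a 3.72-fold difference and a log2 fold change of 1.90 ± 0.17 (SE). TPSB2 took 25% of the summed reads in WT replicate 1 (95% Clopper-Pearson interval 18.3% to 32.8%) and 17.6% in WT replicate 2 (12% to 24.6%). Its share was 20.1% (17.1% to 23.2%) and 16.1% (13.1% to 19.5%) in OGT-depleted replicates 1 and 2. The 4 shares lay close together, the WT and depleted intervals overlapped, and the intervals cover counting error only. The summed count does not depend on how counted reads of the pair are divided. It was higher in both depleted libraries, as the counts of TPSAB1 and of TPSB2 each already were. Whether reads matching both genes were counted at all was not given in the sources used here.

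TPSG1, which shares no such stretch with the pair, had 26.3 and 33.0 normalized counts in WT and 143 and 113 after depletion. Its means differed 4.32-fold (log2 fold change 2.11 ± 0.23, SE), and the closest libraries of the groups stood 3.43-fold apart. By the ratio of means TPSG1 ranked 3, TPSAB1 5 and TPSB2 13 among the 248 higher genes. TPSG1 rested on 25 and 32 raw reads in WT.

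CPA3, the granule carboxypeptidase of mast cells, lies on chromosome 3 from 148583043 to 148614983 (ENSG00000163751). It had 48.4 and 57.7 normalized counts in WT and 124 and 119 after depletion, a 2.29-fold difference (1.19 ± 0.19). The depleted replicates were 1.04-fold apart. Of the 226 other higher genes at least as abundant in WT, 45 had a larger fold change than CPA3, against 5 of 236 for TPSB2, which was less abundant.

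HPGD encodes 15-hydroxyprostaglandin dehydrogenase, which starts the breakdown of prostaglandins (chromosome 4, 175411328 to 175444305, ENSG00000164120). Its normalized counts were 1923 and 1711 in WT, against 4645 and 4119 after depletion. The means, 1817 ± 150 and 4382 ± 372 (SD, n = 2), differed 2.41-fold, with a log2 fold change of 1.27 ± 0.12 (SE). HPGD was the most abundant of the 6 higher members. Of the 38 other higher genes at least as abundant in WT, 1 had a larger fold change. Of the 27 genes of prostaglandin and leukotriene synthesis, breakdown and reception, HPGD was the 1 in the table, and the other 26, the synthases PTGS1, PTGS2 and HPGDS among them, were not analysed here.

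IL1RL1 encodes ST2, the receptor through which mast cells and basophils respond to interleukin-33 (chromosome 2, 102927962 to 102968497, ENSG00000115602). It had 326 and 353 normalized counts in WT and 512 and 655 after depletion, a 1.72-fold difference (0.78 ± 0.16). This was the smallest change of the 6 higher members, with the closest libraries 1.45-fold apart. CSF2RB, the signalling chain common to several cytokine receptors of the IL-3 family, was the other gene of the 18 in the IL-33 and type 2 cytokine list that was in the table, and it was lower. Its normalized counts were 4342 and 5448 in WT, against 2581 and 2890 after depletion, 55.9% of WT by the means.

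FCER1A encodes the IgE-binding alpha subunit of the high-affinity IgE receptor (chromosome 1, 159259504 to 159278014, ENSG00000179639). It had 5492 and 4418 normalized counts in WT and 3203 and 2825 after depletion. With means of 4955 ± 759 and 3014 ± 267 (SD, n = 2), the depleted group stood at 60.8% of the WT level, and the log2 fold change was -0.72 ± 0.13 (SE). The lower WT library was 1.38-fold above the higher depleted library. Of 21 genes of the IgE receptor, its proximal signalling and other activating receptors, FCER1A and SIGLEC6 were in the table and both were lower. SIGLEC6, a sialic acid-binding lectin of mast cells and trophoblast, had 842 and 1280 normalized counts in WT and 494 and 749 after depletion. Its replicates were 1.52-fold apart in WT and 1.51-fold after depletion, more than the 1.13-fold that separated the closest libraries of the groups. The other subunits of the receptor, MS4A2 and FCER1G, and the kinases LYN and SYK were not analysed here.

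MS4A3, a multi-span membrane protein of granulocyte progenitors and basophils, lies on chromosome 11 from 59824060 to 59838601 (ENSG00000149516). It had 781 and 556 normalized counts in WT and 415 and 332 after depletion, 55.8% of WT by the means (log2 fold change -0.84 ± 0.18, SE). The WT replicates were 1.40-fold apart, more than the 1.34-fold that separated the closest libraries of the groups. Of 22 basophil, eosinophil and granulocyte progenitor markers, MS4A3 and CPA3 were in the table, 1 lower and 1 higher.

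**Figure D2:**
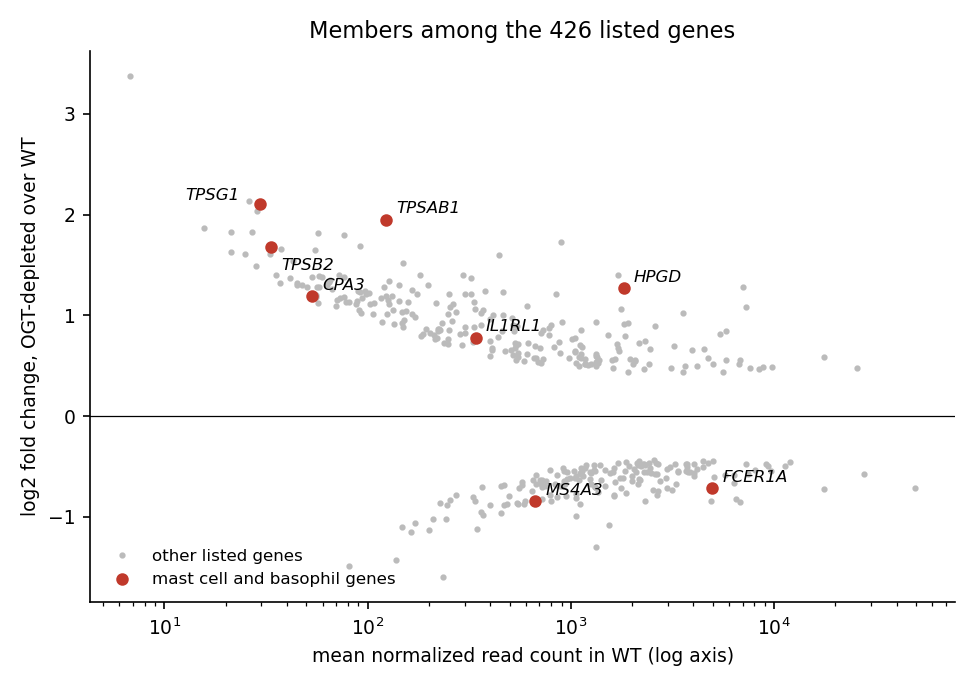
Each point is 1 of the 426 listed genes, by its mean normalized count in WT (log axis) and its log2 fold change, OGT-depleted over WT; the 8 genes are in red. TPSAB1 and HPGD lie along the upper edge at their abundance, while CPA3 and IL1RL1 lie inside the band of higher genes and FCER1A and MS4A3 among the lower ones.

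In the plot against abundance the band around 0 is empty, because the table holds called genes only, and it is wider for rarer genes. The smallest absolute log2 fold change was 1.02 among the 57 listed genes with a WT mean under 100 normalized counts, where TPSG1, TPSB2 and CPA3 lie. It was 0.44 among the 189 listed genes with a WT mean of at least 1000, where HPGD and FCER1A lie. In the authors' deposited table the adjusted p was 9.17e-14 for TPSAB1, 5.2e-15 for HPGD, 2.38e-05 for TPSG1, 0.000424 for FCER1A, 0.00588 for TPSB2, 0.00664 for MS4A3, 0.00747 for IL1RL1 and 0.0295 for CPA3. Its log2 fold changes, which were smaller in size than those of the refit for each of the 8 genes, ran from 1.49 for TPSAB1 to 0.63 for IL1RL1 among the higher members and were -0.63 for FCER1A and -0.66 for MS4A3.

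Scaled to gene length and library total (FPKM), FCER1A stood far above the other members in WT, at 227 ± 25.7 (SD, n = 2). HPGD followed at 32.1 ± 1.36 and MS4A3 at 22.1 ± 4.39. TPSAB1 (4.87 ± 0.55) and IL1RL1 (4.56 ± 0.44) overlapped in their ranges. So did each neighbouring pair of CPA3 (1.59 ± 0.26), TPSB2 (1.47 ± 0.29) and TPSG1 (1.44 ± 0.28), the lowest of the 8. FCER1A ranked 12 of the 426 listed genes by FPKM in WT, and TPSG1 383.

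After depletion FCER1A was still the highest at 140.1 ± 8.31 FPKM, and HPGD was at 78.4 ± 4.35. TPSAB1, at 19.0 ± 2.16, now stood above MS4A3 at 12.5 ± 1.61, with no overlap between the libraries of these genes. IL1RL1 (7.94 ± 1.60) and TPSG1 (6.25 ± 0.85) overlapped, as did TPSG1 and TPSB2 (4.77 ± 1.42), while CPA3 (3.67 ± 0.0039) was the lowest. Of the summed FPKM of the 8 genes FCER1A made up 76.9% in WT and 51.4% after depletion, HPGD 10.9% and 28.8%, and TPSAB1 1.65% and 6.97%. The sum itself was 295 FPKM in WT and 273 after depletion. By library it was 316 and 274 in WT, against 285 and 261 after depletion, so the groups overlapped.

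**Figure D3:**
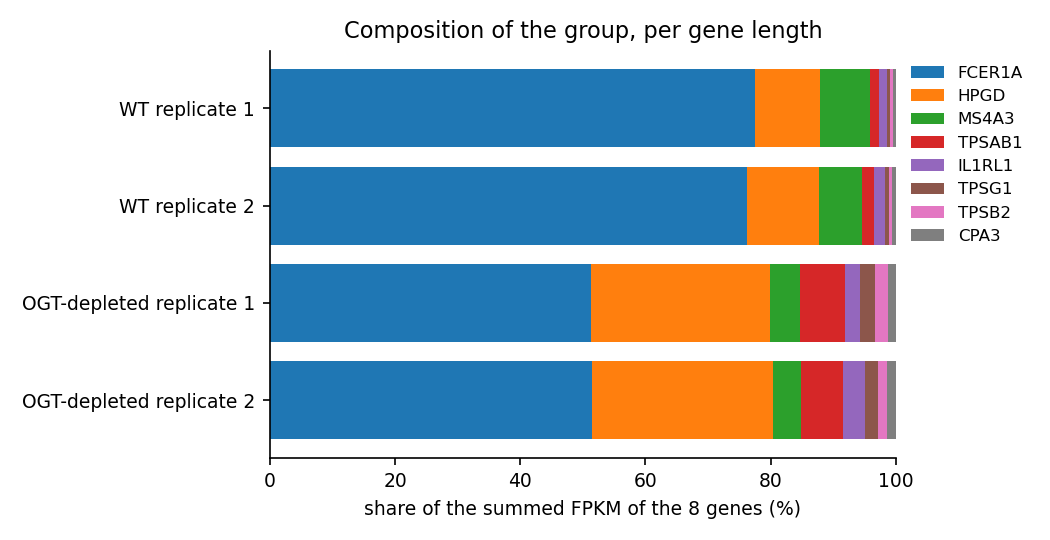
Share of each gene in the summed FPKM of the 8 genes, as a percentage, by library; every bar adds to 100%. FCER1A takes most of each WT bar (76.9% by group means) and 51.4% after depletion, where the HPGD and TPSAB1 segments are wider.

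Grouped by role, all 4 listed granule genes of a list of 18 were higher: the tryptase genes and CPA3. Their summed normalized count was 231 and 248 in WT, against 924 and 743 after depletion. The 2 listed genes of the IgE receptor list, FCER1A and SIGLEC6, were lower, with sums of 6334 and 5698 in WT, against 3697 and 3573 after depletion. Of 23 transcription factors used in mast cells and basophils, BHLHE40, a basic helix-loop-helix repressor, was in the table, with 7715 and 7099 normalized counts in WT and 4936 and 4978 after depletion. The other 22, GATA1, GATA2 and MITF among them, were not analysed here. Outside the members, 11 of the 187 genes on these lists and on those of other blood lineages were in the table. The lists were drawn up with earlier results of these data known, so their counts support no direction.

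Genes of other blood lineages differed between the same libraries. Among 18 erythroid markers HBE1, an embryonic globin, and CA2, a carbonic anhydrase, were higher and KEL, a blood group glycoprotein, was lower. Means differed 3.32-fold for HBE1 and 1.56-fold for CA2, and KEL stood at 68.1% of WT. Summed normalized counts were 3380 to 3721 in WT, against 5244 to 6143 after depletion. Among 18 lymphoid markers the granzyme gene GZMA was higher, at 22.1 and 29.9 in WT and 132 and 97.8 after depletion. This 4.41-fold difference ranked 2 among the 248 higher genes, above TPSG1. CD4 was lower, at 73.7% of WT, and set most of the summed counts (2577 to 2620 in WT, 1975 to 2047 after depletion). Among 22 megakaryocyte and platelet markers the platelet tubulin gene TUBB1 was 2.29-fold higher by the means. The thrombin receptor gene F2R was lower, at 69.9% of WT, and set most of the summed counts (2546 to 2626 in WT, 2008 to 2026 after depletion). ITGAM, an integrin subunit, was the listed gene of 17 monocyte, neutrophil and dendritic markers, at 4297 and 4628 in WT, against 3141 and 3425 after depletion. The part of these lineages in the values of the mast cell and basophil genes was not tested.

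The 3 tryptase genes lie within a short stretch of chromosome 16, with 2.02 kb between TPSG1 and TPSB2 and 10.5 kb between TPSB2 and TPSAB1. BAIAP3, which encodes a C2-domain protein of exocytosis, was the other listed gene within 1 Mb, 91.0 kb beyond TPSAB1. Its normalized counts were 85.3 and 68.0 in WT, against 272 and 262 after depletion, a 3.48-fold difference of the same direction and similar size. Unlisted genes of the stretch, TPSD1 among them, were not analysed here.

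MS4A3 lies in a cluster of related genes, and its listed neighbours within 1 Mb went the opposite way. MS4A6A, 100.5 kb away, had 1653 and 1714 normalized counts in WT and 2769 and 2767 after depletion, a 1.64-fold difference. MS4A4E, at 130.1 kb, had 115 and 185 in WT, against 268 and 287 after depletion. MS4A4A, at 209 kb, had 77.9 and 51.5 in WT, against 168 and 158 after depletion, a 2.52-fold difference. These encode multi-span membrane proteins of the same family, known from monocytes and macrophages. All 3 were thus higher in both depleted libraries while MS4A3 was lower. CPA3, HPGD and IL1RL1 had 0 listed genes within 1 Mb.

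**Figure D4:**
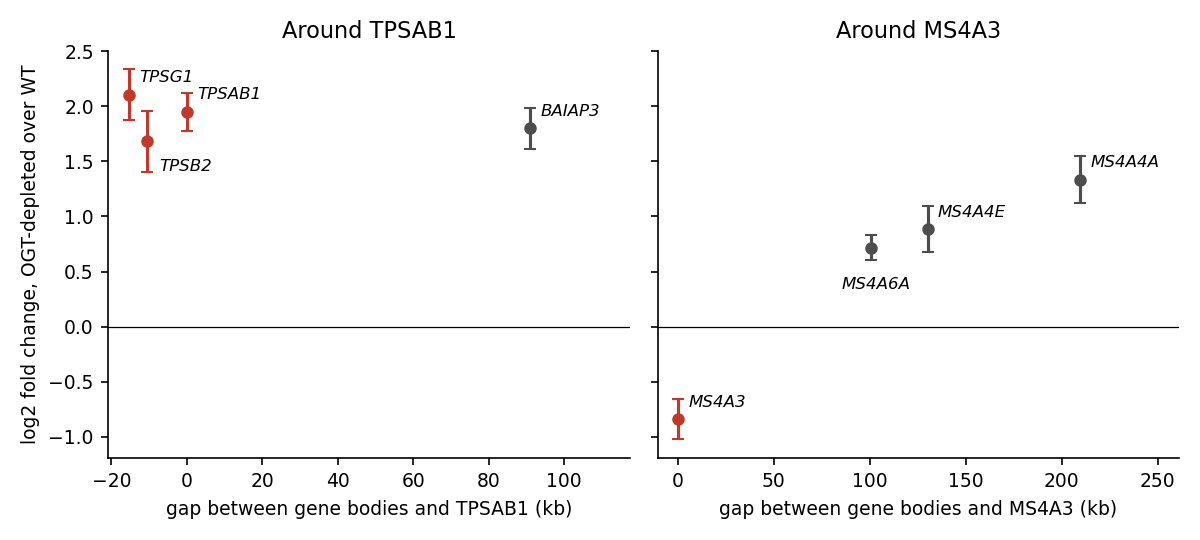
Log2 fold change (± SE, n = 2 per group) of listed genes against the gap in kb between their gene bodies and TPSAB1 (left) or MS4A3 (right), negative toward lower coordinates; the 8 genes are in red. The 4 genes on the left are all higher, and on the right MS4A3 alone is below 0.

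The listed genes whose pattern over the 4 libraries was nearest to TPSAB1, by Euclidean distance between log2 normalized counts centred on each gene, were TFPI2, a Kunitz-type protease inhibitor (0.17), the neighbouring tryptase gene TPSG1 (0.21) and CADPS2, an activator of vesicle secretion (0.28). TFPI2 had 55.8 and 57.7 normalized counts in WT and 212 and 189 after depletion. Nearest to FCER1A were the cytochrome P450 gene CYP4F22 (0.060), the glutamate decarboxylase gene GAD1 (0.083) and the splicing factor gene RBM17 (0.093). Each was ranked among 425 other listed genes, and with 4 libraries in 2 groups such distances mainly reflect the group difference.

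Promoter sequence was examined for matches to the binding sequence of GATA factors, which act in mast cells and megakaryocytes alike. RefSeq promoters (GRCh38.p14) were found for 6 of the 8 genes, in 8 entries, and the 250 bases before each annotated start were searched on both strands for AGATAA or AGATAG or TGATAA or TGATAG. A match was present in 4 of the 8 entries and in 22.3% of 35116 promoters of the same length. The entries with a match held 33.6% to 46.4% GC, and those without held 33.2% to 70.8%. The median over all promoters was 58.0%. The background was not matched for GC content, so no enrichment can be read from these shares. The members with a match were CPA3 and IL1RL1, which were higher, and FCER1A and MS4A3, which were lower, so matches occurred in both directions. The entries of HPGD (2), TPSG1 (1) and the other start of IL1RL1 held none of these letters. Matches are in capitals below, with positions counted back from -1 at the base before the start. FCER1A had a match at -122 (chr1:159302086-159302335, plus strand) and MS4A3 at -55 (chr11:60056415-60056664, plus strand). CPA3 had matches at -173 and -45 (chr3:148865046-148865295, plus strand), and IL1RL1 at -234, -224, -115 and -85 of one of its starts (chr2:102311313-102311562, plus strand). At least 2 matches were present in 4.96% of all promoters, again without matching for GC content.
FCER1A: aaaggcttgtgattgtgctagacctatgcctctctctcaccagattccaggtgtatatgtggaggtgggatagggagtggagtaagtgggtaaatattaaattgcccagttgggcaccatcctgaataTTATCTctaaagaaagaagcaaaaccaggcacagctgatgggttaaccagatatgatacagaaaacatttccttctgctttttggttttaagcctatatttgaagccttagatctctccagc
MS4A3: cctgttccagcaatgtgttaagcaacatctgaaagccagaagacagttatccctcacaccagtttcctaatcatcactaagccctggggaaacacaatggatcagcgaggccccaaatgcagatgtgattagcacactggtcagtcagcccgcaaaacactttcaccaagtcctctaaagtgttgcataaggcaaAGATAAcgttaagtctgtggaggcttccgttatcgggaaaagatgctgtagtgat
CPA3: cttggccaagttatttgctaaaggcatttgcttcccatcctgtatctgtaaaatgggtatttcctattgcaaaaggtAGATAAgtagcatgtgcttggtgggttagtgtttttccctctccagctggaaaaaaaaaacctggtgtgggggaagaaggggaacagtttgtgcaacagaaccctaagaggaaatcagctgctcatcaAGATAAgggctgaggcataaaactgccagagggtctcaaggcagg
IL1RL1: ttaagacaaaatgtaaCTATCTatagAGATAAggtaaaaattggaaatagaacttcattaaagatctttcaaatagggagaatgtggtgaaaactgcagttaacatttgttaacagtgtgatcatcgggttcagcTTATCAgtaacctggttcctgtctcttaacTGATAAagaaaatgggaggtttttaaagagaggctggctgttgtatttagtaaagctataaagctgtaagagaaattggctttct

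The same replicate number was the higher library in both groups for 5 of the 8 members, and different numbers for 3. The share over all listed genes was not counted. Replicate 1 was the higher library in both groups for TPSB2, HPGD, FCER1A and MS4A3, and replicate 2 for IL1RL1, while TPSAB1, TPSG1 and CPA3 had different numbers higher in the groups. A refit of the listed genes with edgeR's quasi-likelihood test called all 8 members, beside 82.2% of the listed genes, which repeats the selection and adds no support. Without WT replicate 1 the members called were TPSAB1, TPSG1 and HPGD, beside 20.2% of listed genes, and without WT replicate 2 they were the same 3, beside 8.69%. Without OGT-depleted replicate 2 the log2 fold change of IL1RL1 was 0.59, and without OGT-depleted replicate 1 it was 0.95, beside 0.78 with all 4 libraries.

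**Figure D5:**
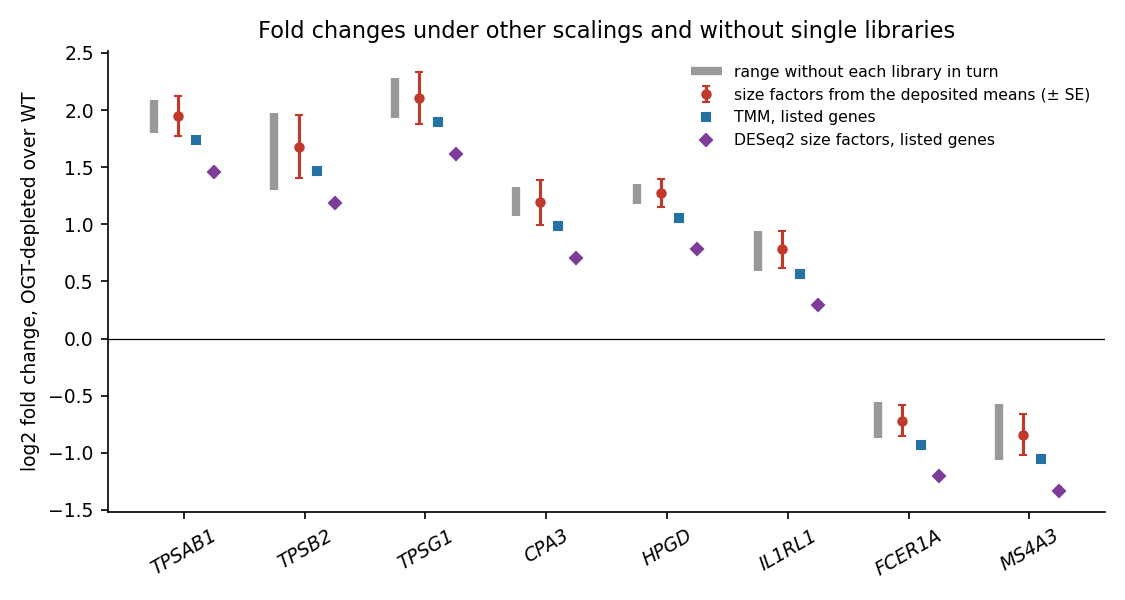
Log2 fold change of each gene with size factors from the deposited means (red, ± SE), with TMM factors (blue) and DESeq2 size factors (purple) computed from the listed genes, and its range when each library is left out in turn (grey bars). The 6 higher genes stay above 0 and FCER1A and MS4A3 below 0 in every setting drawn, with IL1RL1 the closest to 0 at 0.30.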

How the data were processed

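RNA of 4 MEG-01 libraries, 2 WT and 2 OGT-depleted by their titles, was sequenced by the authors. Per the submitters' processing notes, which assign no roles, CASAVA 1.8, STAR 2.5, TopHat, DESeq2 and hg19 were used. The counter, annotation and strand setting were not given in the sources used here; overlapping genes cannot be told apart. The treated columns are headed OGTi 1 and 2 and were matched to the titles CR_OGT by number. The deposited table holds raw read counts, FPKM computed by the authors on counted reads and gene length, group means as a normalized signal, and the authors' log2 fold changes and p-values, for 426 called genes only; "other" deposited values are gene lengths in bases.

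Library totals were recovered from count, length and FPKM, size factors (0.950, 0.971, 1.06 and 1.04 in WT and depleted replicates 1 and 2) from the deposited group means, and the 13154 tested genes from the adjusted p-values. Counts of all listed genes were fitted with edgeR 4.0.16 in R 4.3.3 (quasi-likelihood, library sizes proportional to those factors, Benjamini-Hochberg adjustment over 13154 genes, threshold 0.05), and the script was tested on simulated data. The SE was obtained by dividing a fitted log2 value by the root of its F statistic. All 426 genes passed filterByExpr. DESeq2 1.42.0 and other scalings were alternatives. Coding sequences were aligned with Biopython 1.88.

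The members, gene lists and tests were chosen with earlier results of these data known. Named were the 8 members, listed genes of the lists, those within 1 Mb of a member (except an item not reported here), the 3 nearest in pattern to TPSAB1 and to FCER1A, and OGT.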

Additional observations from a re-analysis of the deposited data

How the results depend on the processing

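No direction of the 8 genes changed under any alternative run. Of 96 values of single members, 81 moved by less than the spread between replicates, 15 by more and 0 reversed. Many of these outcomes were fixed in advance, so the tally is no measure of robustness. All listed genes passed the filter on low counts, so dropping it changed nothing. The groups of no member overlapped, so leaving out a library could not reverse a direction. With 2 replicates per group, such a value can also hardly move beyond the spread between them. TMM factors from the listed genes shifted all log2 fold changes downward, giving 1.69 for the summed tryptase pair and 1.02 for the members' median. DESeq2 size factors from them gave 1.40 and 0.74 and left IL1RL1 at 0.30. The same shifts made the changes of the lower members larger in size, at -0.93 and -1.21 for FCER1A and -1.05 and -1.33 for MS4A3. These scalings shift the median of all listed genes by -0.21 and -0.49, since they take factors from genes chosen as changed. Leaving out each library in turn gave 1.70 to 2.07 for the pair, 1.17 to 1.29 for the median and 3 to 8 members called in edgeR's refit; a lone library is then assumed to vary like the other group. Calls over all listed genes also fell sharply in the fits that left out a WT replicate, where the fewest members were called. The range of members called is therefore not particular to the 8 genes. With the replicate number as a block 0 members were called, as were 0 of the 426 listed genes. Replicate differences in the groups correlated across the 426 genes (r = 0.50), but with 2 pairs and no label that ties them, the pairing is not established. Of the 8 calls, 7 were kept under TMM, without IL1RL1, beside 73.5% of the listed genes called. Under the DESeq2 factors 6 were kept, without CPA3 and IL1RL1, beside 59.9% of the listed genes. The smallest member counts (25 to 56 reads in WT for TPSG1, TPSB2 and CPA3) limit the precision of their folds.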
